A study of Mus musculus with 4 samples.

Results

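The genes described here encode the machinery of autophagy and of the lysosome, the compartment in which autophagy ends. They were chosen by name, as a list of 34 genes out of the 56493 in the deposited count table, and each of the 34 was found there once. By role, 6 act at the start of autophagy, 5 in conjugation, 5 are ATG8 proteins that coat the autophagosome, 2 are cargo receptors, 4 belong to the lysosomal membrane or its control, 8 work in the lysosomal lumen and 4 are subunits of the proton pump. All 34 passed the filter on low counts, which 19638 genes passed, with 192 to 35539 counts in a library.

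RNA was measured in sorted retinal cells of wild-type mice, labelled as retinal ganglion cells (RGCs), the neurons that send axons through the optic nerve. An adeno-associated virus vector (AAV2) was injected into the vitreous, the optic nerve was crushed 1 month later, and cells were collected by flow sorting. In 2 libraries the vector was AAV2-CrAT, which carries carnitine acetyltransferase, and in the 2 control libraries it was AAV2-MCS, an abbreviation the labels do not spell out. The sample titles also carry the tag NCd8, which is not explained. Crush, genotype and vector serotype were thus shared by all 4 libraries, while the vector's promoter, the age of the mice and the number of animals per library are not given in the labels. Where libraries of a group are not known to come from separate animals, p-values measure only the spread between these libraries, which may be technical.

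In autophagy a cell encloses part of its own cytoplasm in a double membrane, the autophagosome, and delivers it to lysosomes for breakdown. Kinases and lipid-modifying complexes start the membrane, a ubiquitin-like conjugation system attaches ATG8 proteins to it, and cargo receptors bind both ATG8 and the material to be removed. Lysosomal hydrolases then digest the content at an acidic pH that the vacuolar proton pump maintains. Neurons, whose axons lie far from the cell body, depend on this route for the turnover of proteins and mitochondria.

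Library totals ran from 24494253 to 27097438 counts. Crat itself was at 72.5 and 49.9 CPM (counts scaled to library size, with TMM factors) in CrAT replicates 1 and 2, and at 38.3 and 47.7 CPM in MCS replicates 1 and 2, with an edgeR adjusted p of 1. Pairs of values below keep this order of replicates. Whether transcripts of the vector were counted as Crat was not tested. Against the label, markers of other retinal cells than ganglion cells were detected. Over 10 ganglion cell markers that could be tested, out of 12 listed, the summed level was 61.8 to 235 CPM, while 12 rod markers summed to 25848 to 48604 CPM and 12 markers of Mueller glia to 12760 to 23556 CPM. The Mueller glia markers were lower in CrAT in 12 of 12 cases, with a median log2 fold change of -0.83. For 8 of the 12 (66.7%) the groups did not overlap, each time with CrAT lower. Of all genes tested, 31.6% did not overlap in either direction and 16.6% with CrAT lower. Microglia and macrophage markers, from cells rich in lysosomes, summed to 34.5 to 41.1 CPM over 11 of 13 genes. In RNA from mixed cells, fewer cells of a type and less RNA per cell cannot be told apart, which holds for every value below.

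No autophagy or lysosome gene passed the test for a difference between the vectors. With edgeR's quasi-likelihood test, 0 of the 34 genes passed an adjusted p of 0.05 in either direction, and each had an adjusted p of 1. The same was true of the whole table, where none of 19638 genes (0%) passed. At an unadjusted p under 0.05 the test took 0 of the 34, against 815 genes or 4.15% of all tested. DESeq2 called 0 of the 34 as well, and 55 of all genes, or 0.28%, with 1 of the 34, Gabarapl2, and 4.57% of all genes at an unadjusted p under 0.05.

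The fold changes were small and split evenly in sign. CrAT was higher in 18 of the 34 genes and lower in 16, and the median log2 fold change was 0.09, against 0.01 over all genes tested. In absolute size the median was 0.18, compared with 0.24 over the 10601 genes at or above the mean level of the lowest of the 34. Those 10601 genes were not matched to the levels of the 34. Each CrAT library exceeded each MCS library for 7 of the 34 genes, where 15% of all genes did so, and below them for 3, where 16.6% of all genes did so. Together these 10 genes are 29.4% of the list, and the share over all genes was 31.6%, a share near that background. The 95% intervals of the log2 fold changes reached between 0.65 and 1.30 to either side of the estimate, with a median of 0.75. Larger true differences than this can also miss the threshold with 2 libraries a group, and the intervals do not show that the groups are alike.

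**Figure D1:**
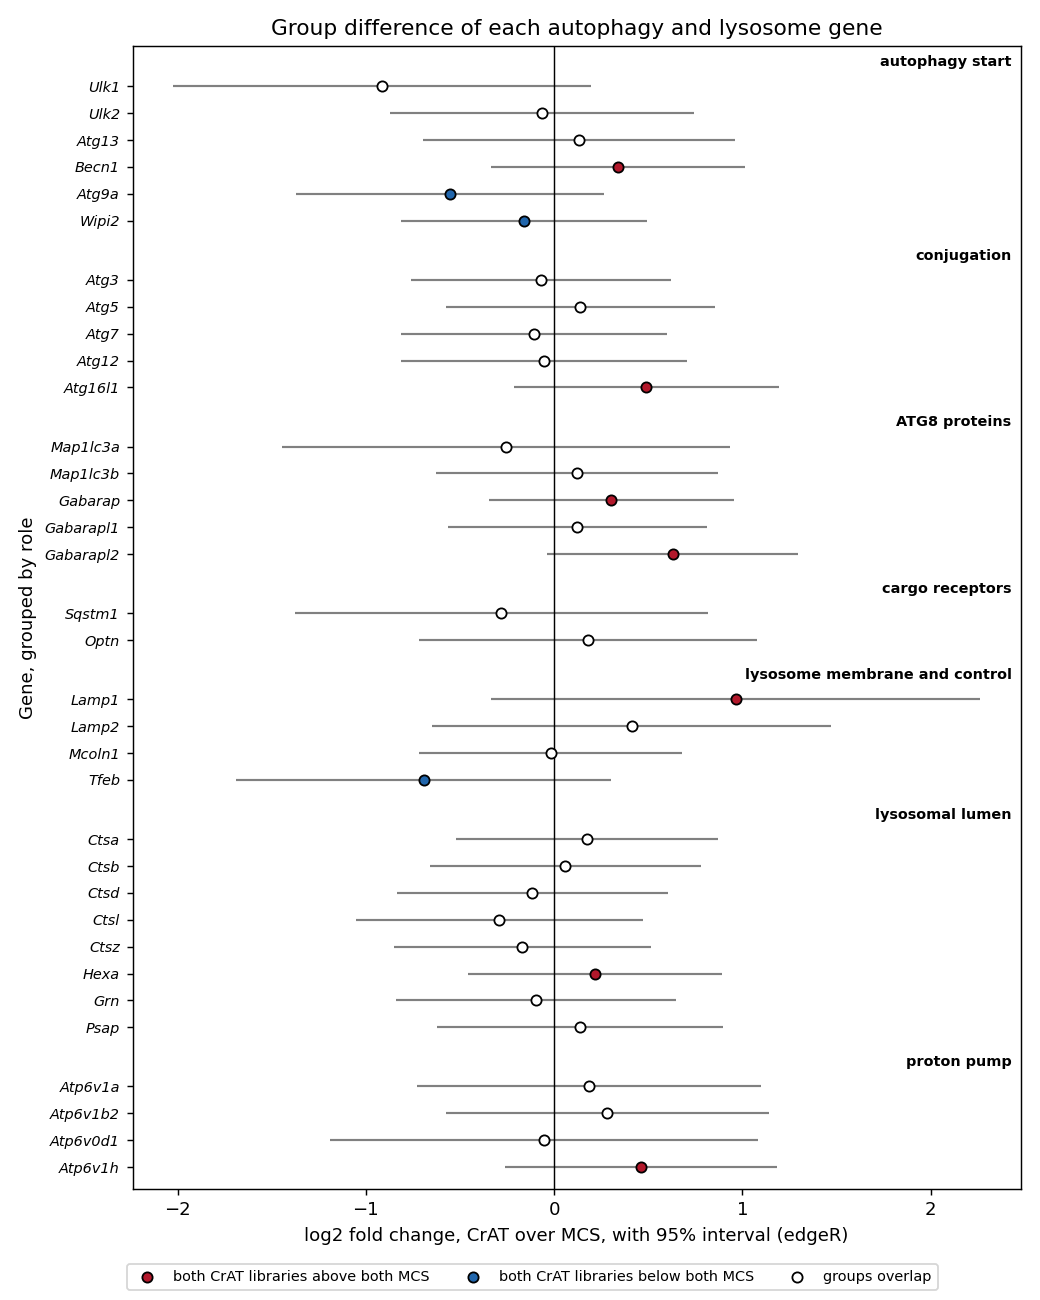
Log2 fold change of CrAT over MCS for each of the 34 genes, grouped by role, with points for the edgeR estimate and grey lines for its 95% interval (2 libraries a group). Every interval crosses 0; the 7 red points mark genes in which each CrAT library exceeded each MCS library and the 3 blue points those in which each was lower.

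Many lysosomal genes are known targets of the transcription factor Tfeb, which in mammals binds DNA at sequences built around the letters CACGTG. Promoter windows were therefore searched. The 34 genes were chosen by name and not by sequence. A list of lysosomal genes can hold such known targets, so the share with the motif is not independent of the choice. RefSeq windows on build GRCm38.p6, from 250 bases before to 50 bases after a gene's start, were at hand for 27 of the 34 genes. The motif CACGTG, which reads the same on both strands, was in a window of 10 of the 27 (37.0%), against 8.09% of the 27025 genes in that table and 11.1% of the 12412 of them that were tested for expression. The longer form TCACGTGA, which contains the shorter one, was in 6 of the 27 (22.2%), against 1.12% of all genes and 1.98% of those tested. Among 93 further genes of the same pathway with a window, CACGTG was in 19 (20.4%) and TCACGTGA in 4 (4.30%). The palindrome of 10 letters known as the CLEAR element was in 0 of the 27, and in 0.37% of all genes. A match is a run of letters and not a shown binding site.

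The 250 bases before the start of 4 of these genes are printed because they show how the motif, in capitals, is placed in a conjugation gene, a membrane gene, a hydrolase gene and a pump gene. The windows are Atg3 (chr16:45158579-45158828, plus strand), Lamp1 (chr8:13158911-13159160, plus strand), Ctsd (chr7:142387828-142388077, minus strand) and Atp6v1a (chr16:44139260-44139509, minus strand), all on GRCm38.p6 and written 5′ to 3′ along the gene.
Atg3: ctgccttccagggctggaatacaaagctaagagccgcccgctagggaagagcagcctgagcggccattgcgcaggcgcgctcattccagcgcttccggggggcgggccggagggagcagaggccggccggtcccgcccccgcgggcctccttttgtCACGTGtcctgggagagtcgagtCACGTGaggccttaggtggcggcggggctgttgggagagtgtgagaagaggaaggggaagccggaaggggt
Lamp1: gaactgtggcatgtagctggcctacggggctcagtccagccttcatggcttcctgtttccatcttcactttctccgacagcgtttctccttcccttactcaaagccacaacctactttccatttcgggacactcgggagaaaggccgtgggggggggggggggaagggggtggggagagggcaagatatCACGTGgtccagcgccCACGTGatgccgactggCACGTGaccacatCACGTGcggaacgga
Ctsd: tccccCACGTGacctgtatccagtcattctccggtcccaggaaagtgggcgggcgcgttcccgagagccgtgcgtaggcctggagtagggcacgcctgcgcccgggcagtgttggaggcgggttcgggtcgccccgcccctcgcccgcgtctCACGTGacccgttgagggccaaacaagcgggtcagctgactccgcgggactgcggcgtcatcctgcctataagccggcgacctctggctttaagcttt
Atp6v1a: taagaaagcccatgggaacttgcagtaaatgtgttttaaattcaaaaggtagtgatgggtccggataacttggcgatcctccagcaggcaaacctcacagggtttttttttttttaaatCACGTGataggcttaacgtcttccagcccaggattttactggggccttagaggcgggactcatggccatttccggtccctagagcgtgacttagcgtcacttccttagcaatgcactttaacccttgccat
Lamp1 held 4 copies, beginning 61, 45, 28 and 15 bases before the start. Copies began 94 and 71 bases before the start of Atg3, 245 and 98 before that of Ctsd, and 131 before that of Atp6v1a. The other genes with the motif were Atg5, Atg7, Mcoln1, Ctsa, Ctsl and Atp6v0d1. Among the 10 genes with the motif 4 were higher and 6 lower in CrAT, with a median log2 fold change of -0.04, and among the 17 with a window but no motif 9 were higher and 8 lower, with a median of 0.12. Groups did not overlap for 1 of the 10, Lamp1, and for 6 of the 17, beside 31.6% of all genes, and the difference between these counts was not tested.

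The genes that start autophagy shared no direction. Of the 6, 2 were higher and 4 lower in CrAT, with a median log2 fold change of -0.11 that moved to 0.03 when CrAT replicate 1 was left out and to -0.25 when CrAT replicate 2 was. Per exon length, Atg13, a partner of the initiating kinase, was the highest of them at a mean of 28.0 FPKM (the deposited level per exon length and library size), and Ulk2 the lowest at 3.65 FPKM. Atg13 was at 109 and 147 CPM in CrAT replicates 1 and 2, and at 90.9 and 142 CPM in MCS replicates 1 and 2. In both groups replicate 2 was the higher library, the groups overlapped, and the log2 fold change was 0.13 (SE 0.34).

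Ulk1, the kinase that sets autophagy in motion when nutrients or energy are short, had the most negative fold change of the 34. It was at 29.3 and 46.3 CPM with CrAT and at 45.1 and 97.3 CPM with MCS. MCS replicate 2 stood apart as the highest library, 2.10 times the next, CrAT replicate 1 stood apart as the lowest, with the next at 1.54 times its level, and MCS replicate 1 lay just under CrAT replicate 2, so the groups overlapped. The log2 fold change was -0.91 (SE 0.46), with a 95% interval from -2.02 to 0.20, and it was -0.25 without MCS replicate 2 and -1.36 without MCS replicate 1. Without CrAT replicate 1 it was -0.62, and without CrAT replicate 2 -1.26. Ulk2, its paralogue, was 18.8 to 23.9 CPM in the 4 libraries, and its log2 fold change was -0.06 (SE 0.33).

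Atg9a encodes the membrane protein of the vesicles that seed the autophagosome. It was at 56.8 and 94.0 CPM with CrAT and 104 and 117 CPM with MCS. Each CrAT library was under each MCS library, with CrAT replicate 1 well below the rest, and the log2 fold change of -0.55 (SE 0.34) was -0.23 without that library and -0.94 without CrAT replicate 2. Of the exon bases of Atg9a, 31.8% also belong to the predicted gene Gm29253 on the same strand, which was at 43.0 and 59.4 CPM with CrAT and 59.4 and 68.2 CPM with MCS, so reads of the pair could have been divided between them.

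Wipi2, which recognises the phosphoinositide on the growing membrane, was at 88.3 and 104 CPM with CrAT and 107 and 108 CPM with MCS. The groups did not overlap, but CrAT replicate 2 and MCS replicate 1 were only a few CPM apart, and the log2 fold change of -0.16 (SE 0.27) moved to -0.05 without CrAT replicate 1 and to -0.26 without CrAT replicate 2. Becn1, a subunit of the lipid kinase complex that makes this phosphoinositide, went the other way. It was at 73.2 and 85.8 CPM with CrAT and 58.5 and 67.1 CPM with MCS, a log2 fold change of 0.34 (SE 0.28). Exons of Becn1 share 43.9% of their bases with Cntd1 on the opposite strand, which this kit cannot separate; Cntd1 was at 20.0 to 24.7 CPM.

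**Figure D2:**
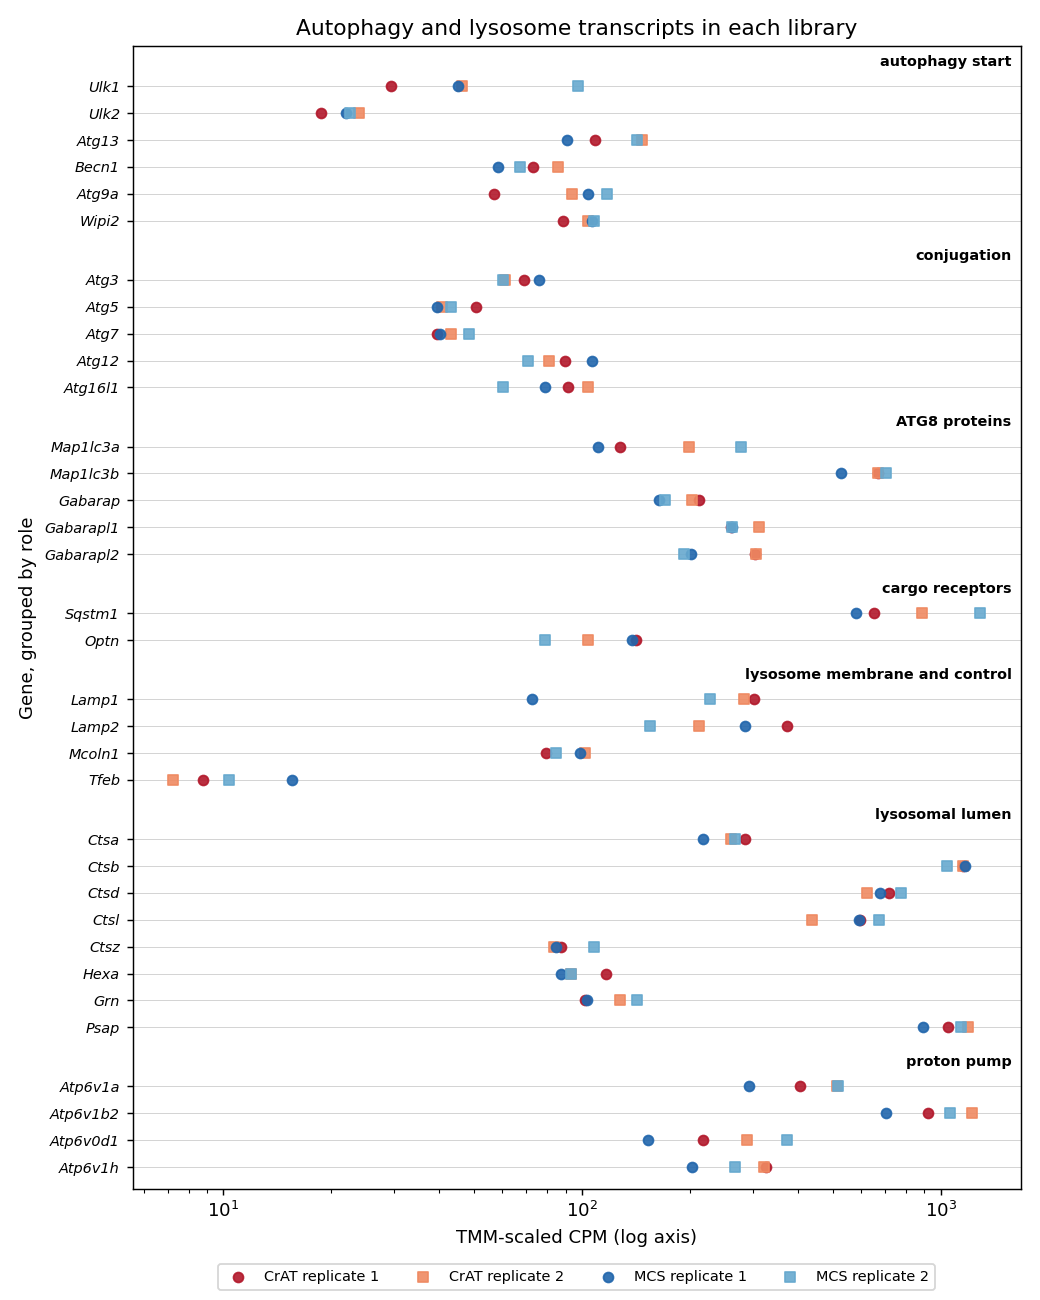
TMM-scaled CPM on a log axis for each of the 34 genes in the 4 libraries (red and orange, CrAT replicates 1 and 2; dark and light blue, MCS replicates 1 and 2), grouped by role. Tfeb is the lowest gene at 7.24 to 15.5 CPM, and Lamp1 in MCS replicate 1, at 72.7 CPM, lies far to the left of the other 3 libraries.

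Of the autophagosome roles, conjugation had the smallest median absolute log2 fold change, 0.11. Its 5 log2 fold changes lay between -0.11 and 0.49, with 2 higher and 3 lower and a median of -0.05, which was 0.04 without CrAT replicate 2, 0.11 without MCS replicate 1 and 0.04 without MCS replicate 2. Atg3, the enzyme that passes ATG8 proteins to lipid, was the highest per length at 21.1 FPKM. It was at 68.8 and 61.1 CPM with CrAT and 76.0 and 60.2 CPM with MCS, with replicate 1 the higher library in each group and a log2 fold change of -0.07 (SE 0.29). Atg7, the activating enzyme of the system, was 39.4 to 48.5 CPM, Atg5 39.5 to 50.5 CPM and its ubiquitin-like partner Atg12 70.5 to 106 CPM, all with overlapping groups. Their log2 fold changes were -0.11, 0.14 and -0.05.

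Atg16l1, which binds the Atg12 and Atg5 conjugate and places it on the membrane, was the exception. It was at 91.6 and 104 CPM with CrAT and 79.0 and 60.4 CPM with MCS. Each CrAT library exceeded each MCS library, and the log2 fold change of 0.49 (SE 0.29) was larger than the gap between replicates of either group, 0.18 in CrAT and 0.38 in MCS on the log2 scale. It was 0.31 without MCS replicate 2. It did not pass the test (edgeR, adjusted p = 1).

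Among the ATG8 proteins, 4 of 5 were higher in CrAT and the median log2 fold change was 0.12, with values from 0.13 to 0.35 when a library was left out, the highest without MCS replicate 2. Per length, mean levels ran from 85.1 FPKM for Map1lc3b through 101 for Gabarap, 107 for Gabarapl2 and 136 for Gabarapl1 to 151 FPKM for Map1lc3a, and the libraries' ranges of neighbours in this order overlapped. Gabarapl2, a member of the GABARAP branch that also serves traffic through the Golgi, had the steadiest difference. It was at 303 and 306 CPM with CrAT and at 202 and 192 CPM with MCS. Replicates were nearly equal within each group and the groups lay well apart.

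The log2 fold change of Gabarapl2 was 0.63 (SE 0.27), or 1.55-fold, with a 95% interval from -0.04 to 1.29. It did not pass in edgeR (adjusted p = 1) or in DESeq2 (adjusted p = 1), and it stayed between 0.60 and 0.67 whichever library was left out. Gabarap was at 211 and 202 CPM with CrAT and 164 and 171 CPM with MCS, also without overlap, for a log2 fold change of 0.30 (SE 0.27). Gabarapl1 was 259 to 311 CPM in the 4 libraries, with CrAT replicate 1 the lowest, and its log2 fold change of 0.12 (SE 0.28) moved to 0.25 without CrAT replicate 1 and to 0.01 without CrAT replicate 2. Of its exon bases 28.3% lie opposite the noncoding gene 1700101I11Rik.

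The LC3 branch behaved differently between replicates. Map1lc3a was at 128 and 198 CPM with CrAT and 111 and 277 CPM with MCS. Replicate 2 was higher in both groups, the span from lowest to highest library was 2.49-fold, and the log2 fold change of -0.25 (SE 0.49) was -0.76 without MCS replicate 1 and 0.56 without MCS replicate 2. Map1lc3b, the form most used as a marker of autophagosomes, was at 668 CPM in both CrAT replicates and at 526 and 701 CPM with MCS, so CrAT lay inside the range of MCS, at a log2 fold change of 0.12 (SE 0.31).

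Of the cargo receptors, Sqstm1 (also called p62), which links ubiquitinated proteins to ATG8 and is itself degraded by autophagy, was the more abundant at 254 FPKM. It was at 653 and 886 CPM with CrAT and 581 and 1287 CPM with MCS. The MCS replicates lay on both sides of the CrAT replicates, and the log2 fold change of -0.28 (SE 0.45) was 0.41 without MCS replicate 2 and -0.74 without MCS replicate 1. Optn, a receptor for damaged mitochondria whose human gene is mutated in some families with glaucoma, was at 141 and 104 CPM with CrAT and 138 and 78.9 CPM with MCS. Unlike for Sqstm1, replicate 1 was the higher in each group, and the log2 fold change was 0.18 (SE 0.37).

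The lysosomal membrane and its control held the widest spread of fold changes, from -0.69 to 0.96 on the log2 scale, with 2 genes higher and 2 lower in CrAT. The median of 0.20 was -0.04 without MCS replicate 2. Lamp1, a heavily glycosylated protein that lines the lysosome and is its usual marker, was the highest per length at a mean of 82.1 FPKM. It was at 301 and 284 CPM with CrAT and at 72.7 and 227 CPM with MCS. MCS replicate 1 was the outlying library, at 1807 counts against 6264 in MCS replicate 2, while MCS replicate 2 lay only a little below the CrAT libraries.

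The log2 fold change of Lamp1 was 0.96 (SE 0.53) with a 95% interval from -0.34 to 2.26, and it was 0.37 without MCS replicate 1 and 2.01 without MCS replicate 2. Of the 10601 genes at or above the mean level of the lowest of the 34, 1.84% were as low or lower in MCS replicate 1 relative to MCS replicate 2. Grtp1, whose exons overlap 9.31% of those of Lamp1 on the opposite strand, did not share this pattern, at 121 CPM in MCS replicate 1 against 106 to 156 CPM in the other libraries. The same library held the highest sum of nuclear retained RNA, 1483 CPM over 7 of 8 listed transcripts against 415 to 549 CPM elsewhere. Most of that sum was Malat1, at 1278 CPM there against 307 to 393 CPM elsewhere. Of the 7 transcripts, 5 were highest in that library and 1, Mirg, was lowest there. The part of nuclear retained RNA in the value of Lamp1 was not tested.

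Lamp2, which serves in fusion with autophagosomes and in chaperone-mediated autophagy, followed another order. It was at 373 and 212 CPM with CrAT and 285 and 155 CPM with MCS, so that the groups overlapped and the gap between replicates exceeded that between groups. Its log2 fold change was 0.41 (SE 0.44), and -0.05 without CrAT replicate 1. Mcoln1, the calcium channel of the lysosomal membrane, was 79.5 to 102 CPM in the 4 libraries and differed by -0.02 (SE 0.29) on the log2 scale.

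Tfeb, the transcription factor that switches on lysosomal and autophagy genes, was the lowest of the 34 at 1.86 FPKM. It had 8.80 and 7.24 CPM with CrAT and 15.5 and 10.4 CPM with MCS, from 210, 192, 386 and 287 counts. Each CrAT library was under each MCS library, and the log2 fold change was -0.69 (SE 0.41), or 1.62-fold lower, with a 95% interval from -1.69 to 0.30. It was -0.37 without MCS replicate 1 and -0.95 without MCS replicate 2, and did not pass (edgeR, adjusted p = 1). Its relative Tfe3, tested among further pathway genes, was at 38.0 and 49.5 CPM with CrAT and 59.8 and 62.2 CPM with MCS (log2 fold change -0.48, SE 0.29), and Mitf was near 1 CPM, with 0.586 and 1.09 CPM with CrAT and 1.93 and 1.45 CPM with MCS. The Mueller glia markers were lower in the same CrAT libraries, and their part in these values was not tested.

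The lysosomal lumen held the pair of genes with the highest levels per length. Psap, the precursor of the saposins that help hydrolases act on lipids, averaged 388 FPKM and Ctsd, the aspartic protease cathepsin D, 296 FPKM, followed by Ctsb at 186 FPKM. The 8 genes had 4 positive and 4 negative log2 fold changes between -0.29 and 0.22, with a median of -0.02 that ran from -0.11 to 0.09 with 1 library left out. From the lowest to the highest library they differed by 1.12-fold to 1.53-fold, with a median of 1.32-fold. The median was 1.69-fold over the 10601 genes at or above the mean level of Tfeb, the lowest of the 34. That wider set was not matched to the levels of the lumen genes.

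Psap was at 1044 and 1190 CPM with CrAT and 890 and 1138 CPM with MCS, and Ctsb, a cysteine protease, at 1155 and 1152 CPM with CrAT and 1171 and 1041 CPM with MCS. Both genes had overlapping groups, and the log2 fold changes were 0.14 (SE 0.31) and 0.06 (SE 0.30). For Ctsb the 95% interval ran from 0.63-fold to 1.72-fold. Ctsd was at 715 and 622 CPM with CrAT and 676 and 772 CPM with MCS; 34.4% of its exon bases are shared with the predicted gene Gm49369 on the same strand, at 274 to 351 CPM, so its level and its log2 fold change of -0.11 are uncertain where its reads were divided.

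The cysteine protease Ctsl had the lowest fold change of the lumen genes. It was at 595 and 438 CPM with CrAT and 592 and 671 CPM with MCS, with CrAT replicate 2 low and CrAT replicate 1 level with MCS replicate 1, for a log2 fold change of -0.29 (SE 0.31) that moved to -0.53 without CrAT replicate 1 and to -0.07 without CrAT replicate 2. Hexa, the alpha subunit of the hexosaminidase that degrades gangliosides, was the lumen gene whose groups did not overlap, at 116 and 93.4 CPM with CrAT and 87.3 and 92.9 CPM with MCS. CrAT replicate 2 and MCS replicate 2 were almost equal, and the log2 fold change of 0.22 (SE 0.28) moved to 0.05 without CrAT replicate 1 and to 0.39 without CrAT replicate 2. Ctsa, which protects other hydrolases, was 217 to 285 CPM, the peptidase Ctsz 83.6 to 108 CPM and progranulin (Grn), a regulator of lysosomal function, 102 to 143 CPM, each with overlapping groups. Their log2 fold changes were 0.18, -0.17 and -0.10.

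The 4 subunits of the vacuolar proton pump were all lowest in MCS replicate 1. Groups did not overlap for 1 of the 4 (25%), beside 31.6% of all genes tested. Atp6v1b2, a subunit of the ring that binds ATP, was the highest per length at 184 FPKM. It was at 924 and 1222 CPM with CrAT and 704 and 1060 CPM with MCS. Atp6v1a, which carries the catalytic sites, was at 405 and 515 CPM with CrAT and 292 and 516 CPM with MCS. For both genes MCS replicate 1 was the lowest library and MCS replicate 2 lay between the CrAT replicates or level with the higher one, with log2 fold changes of 0.28 (SE 0.35) and 0.19 (SE 0.38). Without MCS replicate 1 these were 0.02 and -0.16, without MCS replicate 2 they were 0.61 and 0.66, and without CrAT replicate 2 they were 0.08 and 0.02.

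Atp6v0d1, a subunit that joins the membrane sector to the stalk, was at 218 and 288 CPM with CrAT and 152 and 374 CPM with MCS, and its log2 fold change of -0.06 (SE 0.47) was -0.56 without MCS replicate 1 and 0.74 without MCS replicate 2. Atp6v1h, a regulatory subunit, was at 325 and 321 CPM with CrAT and 202 and 267 CPM with MCS. Its groups did not overlap, and the log2 fold change of 0.46 (SE 0.30) was 0.28 without MCS replicate 1. Over the 4 genes the median was 0.23, which turned to -0.07 without MCS replicate 1 and was 0.67 without MCS replicate 2. Summed, they were at 1871 and 2347 CPM with CrAT and 1351 and 2217 CPM with MCS.

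The 14 further pump genes showed the same low library. Of all 18 pump genes, 16 had their lowest level in MCS replicate 1, a library that was lowest for 28.7% of all genes tested. The summed level of the 18 was 6814 and 8519 CPM with CrAT and 4999 and 7912 CPM with MCS. In the lysosomal lumen, by contrast, 12 of 43 genes were lowest in that library, and the sums were 7846 and 7522 CPM with CrAT and 7425 and 7910 CPM with MCS. Atp6v1g2, a pump subunit found mainly in neurons, spanned the widest range, with 180 and 445 CPM with CrAT and 78.3 and 316 CPM with MCS. It was chosen after its values were seen.

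Amacrine cell markers, and most ganglion cell markers, were lowest in the same library. Amacrine cell markers, 8 of 9 listed, summed to 645 and 1923 CPM with CrAT and 410 and 1227 CPM with MCS, with all 8 lowest in MCS replicate 1, and 7 of 10 ganglion cell markers were lowest there too. Rod markers had the reverse order of replicates, at 48604 and 25848 CPM with CrAT and 47523 and 27441 CPM with MCS. Replicate 1 thus had the higher rod sum in each group. Replicate 2 had the higher amacrine, ganglion cell and pump sums in each group. The part of cell composition in the pump values was not tested.

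**Figure D3:**
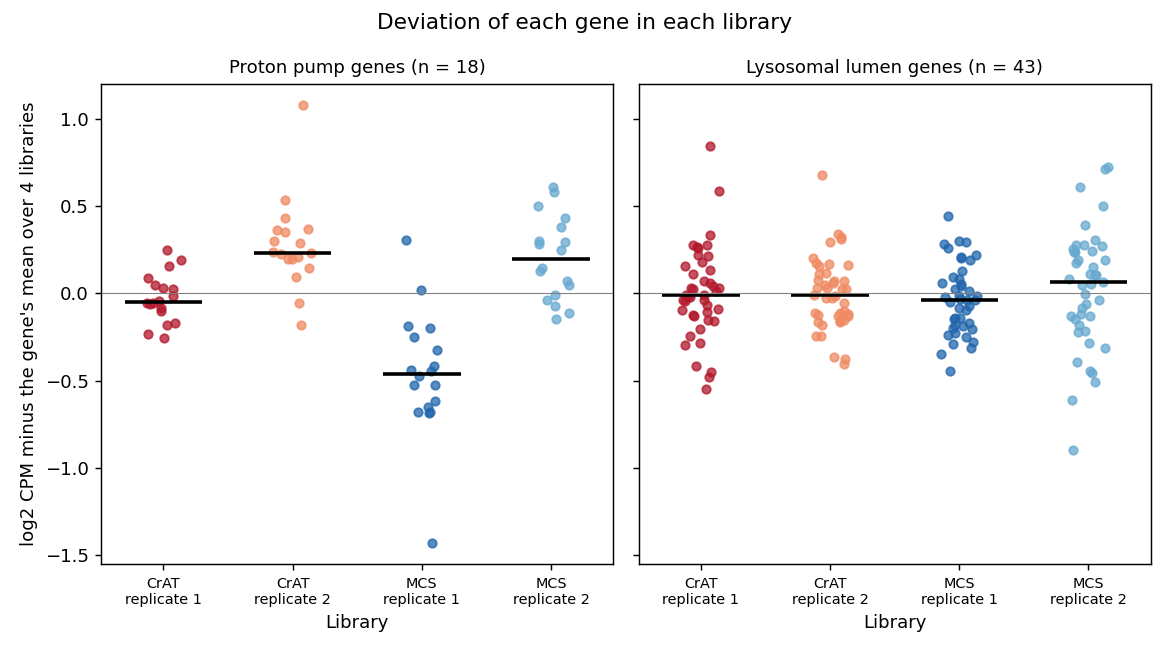
Log2 CPM of each gene minus its own mean over the 4 libraries, for 18 proton pump genes (left) and 43 lysosomal lumen genes (right); points are genes, with sideways jitter only for legibility, and black bars are medians. The pump median in MCS replicate 1 is -0.46 against -0.05 to 0.23 in the other 3 libraries, while the lumen medians stay between -0.04 and 0.06.

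Beyond the 34, a list of 111 further genes of the same pathway was examined, of which 110 passed the filter on low counts; the protease gene Ctsk did not. Of these 0 passed in edgeR, with 0 at an unadjusted p under 0.05, against the 4.15% given above, and DESeq2 called 0 with 1 at an unadjusted p under 0.05. CrAT was higher in 56 and lower in 54, with a median log2 fold change of 0.01, and groups did not overlap for 32, or 29.1%, close to the background of 31.6%.

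By role, the 34 further autophagosome genes had 19 higher and 15 lower, with a median log2 fold change of 0.03. Nbr1, a cargo receptor related to Sqstm1, was at 400 and 336 CPM with CrAT and 328 and 184 CPM with MCS, and Ambra1, a scaffold of the Becn1 complex, had a log2 fold change of 0.60 (SE 0.37) with overlapping groups. The value of Ambra1 was 0.17 without CrAT replicate 2, and that of Nbr1, 0.52 (SE 0.37), was 0.17 without MCS replicate 2. On the lower side, Atg2a, which transfers lipid into the growing membrane, was at 17.8 and 23.0 CPM with CrAT and 30.4 and 33.5 CPM with MCS (log2 fold change -0.65, SE 0.33), and Plekhm1, an adaptor for fusion with lysosomes, had -0.40 (SE 0.36).

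Further lumen genes numbered 35 with a test, 15 higher and 20 lower, with a median of -0.03. The widest differences were in low genes. Manba, a mannosidase, was at 9.30 and 13.8 CPM with CrAT and 7.28 and 5.36 CPM with MCS, and Sgsh, a sulfatase that degrades heparan sulfate, at 12.4 and 13.3 CPM with CrAT and 18.4 and 28.7 CPM with MCS. Neither passed (edgeR, adjusted p = 1). The acid phosphatase Acp2 had a log2 fold change of 0.54 (SE 0.30), and the sialidase Neu1 one of -0.48 (SE 0.43), which turned to 0.11 without MCS replicate 2 and was -0.90 without MCS replicate 1.

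Further pump genes were higher in CrAT in 11 of 14 cases, with a median of 0.26 that was -0.08 without MCS replicate 1. Atp6v1c1, which controls assembly of the pump, was at 284 and 387 CPM with CrAT and 173 and 265 CPM with MCS, and the accessory protein Atp6ap2 at 548 and 568 CPM with CrAT and 413 and 455 CPM with MCS; neither passed. Atp6v0a2 had a log2 fold change of -0.44 (SE 0.27) and Atp6v0e one of -0.07 (SE 0.27). In the 27 further genes of the membrane and its control 11 were higher and 16 lower, with a median of -0.04. Tmem175, a lysosomal ion channel, had a log2 fold change of 0.36 (SE 0.27), and Lamtor2, part of the complex that anchors mTOR signalling to lysosomes, one of 0.34 (SE 0.27).

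Set against the replicates gene by gene, the group gap was the smaller one for most of the pathway. In 28 of the 34 genes (82.4%) the gap between group means on the log2 scale was smaller than the larger of the 2 replicate gaps, as in 79.0% of all genes tested. The 6 genes where it was larger were Becn1, Atg16l1, Gabarap, Gabarapl2, Tfeb and Atp6v1h. The median replicate gap of the 34 was 0.26 in CrAT and 0.35 in MCS. It was 0.30 and 0.47 over the 10601 genes at or above the mean level of the lowest of the 34. A library stood apart from the next by 1.5 times or more in 3 of the 34, Ulk1, Atg9a and Lamp1, or 8.82%. In that wider set 23.1% of genes had such a library. The set begins at 10.5 CPM and was not matched to the levels of the 34.

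**Figure D4:**
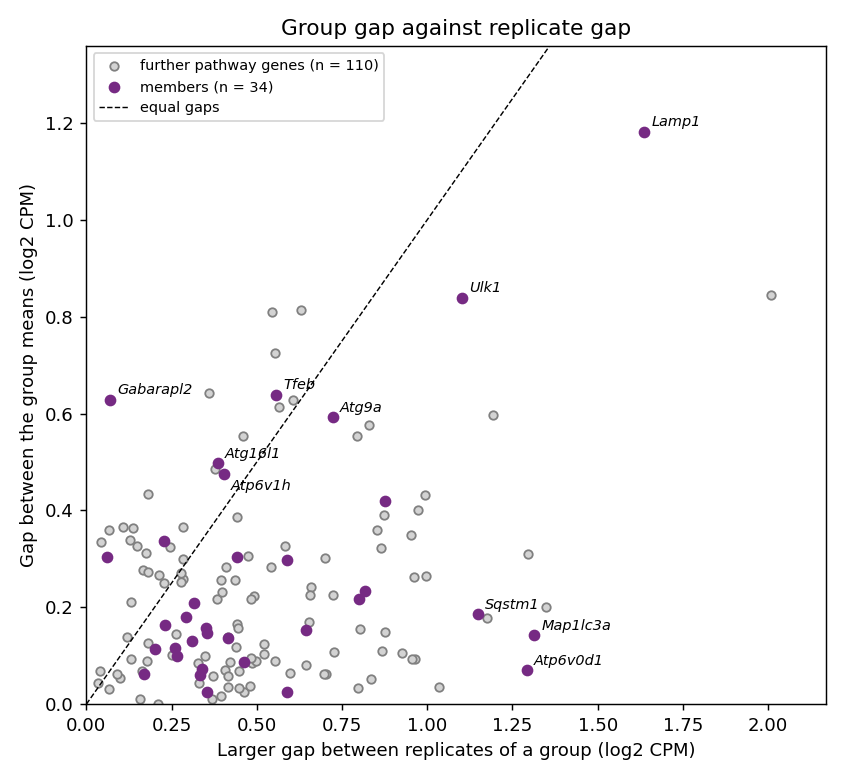
Gap between the group means against the larger gap between replicates of a group, both in log2 CPM, for the 34 genes (purple) and 110 further pathway genes (grey); the dashed line marks equal gaps. 28 of the 34 lie where the replicate gap is larger. Gabarapl2 has a group gap of 0.63 and a replicate gap of 0.07, and Lamp1 has the widest gaps of the 34 on both axes, 1.18 and 1.64.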

How the data were processed

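RNA of 2 CrAT and 2 MCS libraries was analysed, grouped and numbered by the sample titles. Per the labels' protocols, libraries came from a SMART-seq kit for small inputs, which does not mark strand. STAR 2.7.2b is named in the submitters' processing notes, beside mm10 and GRCm38.p6. The name of the deposited count table refers to featureCounts; its version, its settings and the annotation are not stated in any source used here. The authors deposited estimated counts rounded to whole numbers and FPKM values, which are scaled by exon length and library size. Between 43.6% and 44.9% of the values above 0 behind the deposited counts were not whole within 0.02, so reads may have been divided between genes. For 26 of the 34 genes they were not whole, and exons of 15 overlap another gene in the table. Each table held 2 columns of samples other than these, 4 in all, which were not used.

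The counts were filtered with filterByExpr, scaled by TMM (0.970 to 1.02) and tested two-sided with edgeR 4.0.16 (glmQLFit, robust, a model of group alone with 2 residual df) in R 4.3.3, with Benjamini-Hochberg adjustment over 19638 genes at 0.05. The BCV common to all genes was 0.404. The SE and intervals draw on the spread over all genes tested, not only on the replicates of the gene itself. A positive log2 fold change is higher in CrAT, errors in the text are SE, and gaps used log2(CPM + 0.5). An exact permutation test of 2 against 2 libraries cannot go below p = 0.333 and was not used. DESeq2 1.42.0, other scalings, no filter, a replicate block, single libraries left out and FPKM on the log2(FPKM + 1) scale were alternatives. The fit was tested on simulated data, where most of the smallest changes simulated were not called. The 34 genes and all lists were chosen with earlier results of these data known. Within the 34, values in every library are given for genes whose groups do not overlap, for the highest FPKM of each role and for libraries standing apart. Outside these rules they are also given for Map1lc3b, Optn, Lamp2, Ctsb, Ctsd, Ctsl, Atp6v1a and Atp6v0d1. Of each further list up to 2 genes with the smallest p in each direction are named, some of them with values in every library. Atp6v1g2 is given outside these rules.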

Additional observations from a re-analysis of the deposited data

How the results depend on the processing

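The call of 0 among the 34 genes and 0 among the 110 further genes held in every fit. Over all genes the count of 0 was 2 with no filter and 55 in DESeq2. The replicate numbers pair nothing in the labels. Deviations of CrAT and MCS replicate 1 from their group means correlated at 0.39 over genes. With the replicate block 0 genes passed, and 1922 of 19638 were at an unadjusted edgeR p under 0.05, against 815 in the main fit. Of the 34 genes 4 were (Ulk1, Atg9a, Lamp1 and Gabarapl2), a share near that over all genes. Of the 110 further genes 5 were. The count of 10 genes without overlap was 10 or 11 under other scalings and no filter. It was 19 to 26 with 1 library left out, where 59.3% to 72.4% of all genes do not overlap, since a lone library overlaps less easily.

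Role medians stayed within the replicate spread under every scaling, test and block, except the further lumen genes with library totals only (-0.083 against -0.031). With 1 library left out the ranges were -0.25 to 0.026 for the start of autophagy, -0.042 to 0.11 for conjugation, 0.13 to 0.35 for ATG8 proteins, -0.067 to 0.12 for cargo receptors, 0.0019 to 0.17 for these together, -0.039 to 0.30 for the lysosomal membrane, -0.11 to 0.091 for the lumen, -0.072 to 0.67 for the pump and -0.0029 to 0.18 for the 34. In the further lists they were -0.031 to 0.14, -0.14 to 0.045, -0.039 to 0.060 and -0.077 to 0.53 for autophagosome, membrane, lumen and pump.

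Of the 34 log2 fold changes 15 did not change sign and 19 did with a library left out. Atp6v0d1 also did so with the replicate block (0.070) and in FPKM (0.017). The ranges of the 19 with a library left out were -0.32 to 0.28 for Atg12, -0.15 to 0.50 for Atg13, -0.22 to 0.11 for Atg3, -0.026 to 0.31 for Atg5, -0.23 to 0.040 for Atg7, -0.56 to 0.74 for Atp6v0d1, -0.16 to 0.66 for Atp6v1a, -0.018 to 0.15 for Ctsb, -0.22 to 0.0020 for Ctsd, -0.33 to 0.023 for Ctsz, -0.31 to 0.16 for Grn, -0.054 to 0.92 for Lamp2, -0.76 to 0.56 for Map1lc3a, -0.068 to 0.35 for Map1lc3b, -0.19 to 0.15 for Mcoln1, -0.16 to 0.64 for Optn, -0.025 to 0.33 for Psap, -0.74 to 0.41 for Sqstm1 and -0.23 to 0.10 for Ulk2. Of the 15, several came close to 0 with a library left out: 0.019 for Atp6v1b2, 0.038 for Ctsa, -0.067 for Ctsl, 0.0059 for Gabarapl1, 0.052 for Hexa and -0.048 for Wipi2. The cause of these changes was not tested. Each of the 34 had at least 192 counts in every library. Their intervals rest on 2 libraries a group and on a spread estimated with the help of all genes tested.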
